A study of Mus musculus with 6 samples.

Results

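The heat shock chaperones described here are 10 mouse genes, Hspa8, Hspa1a, Hspa1b, Hsph1, Hspa4l, Dnajb1, Hsp90aa1, Hspb1, Hspd1 and Hspe1. Their probes were found by gene name among the non-control spots of the arrays, and every probe of a gene was kept apart. This gave 14 of the 55681 non-control probes, for 9 of the 10 genes and of the 36163 gene, transcript or region names that the files give. Hspa8 and Hspe1 had 3 probes each, Hsph1 had 2 and 6 genes had 1. No probe carried the name Hspa1b, so that gene was not analysed here. All 14 probes were well above background on all 6 arrays, and none was saturated.

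The probes were read in jejunum, a segment of the small intestine, of male C57BL/6J mice, each on an array of its own with 1 colour. In the VND3207 group, 3 mice received VND3207 into the stomach at 100 mg/kg, a compound known here only by that code name. In the vehicle group, 3 mice received the same volume of vehicle. All 6 mice were irradiated with 9 Gy 0.5 h later and the tissue was taken 6 h after radiation, so the comparison concerns what the compound changed in irradiated gut. Unirradiated mice were not analysed here. The VND3207 arrays came from slide 1 and scan 1 and the vehicle arrays from slide 2 and scan 2, so slide cannot be told apart from treatment in the values given here.

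Heat shock proteins are chaperones that bind unfolded or partly folded proteins. HSP70 proteins (Hspa8, Hspa1a) grip short hydrophobic stretches in a cycle driven by ATP. J proteins such as Dnajb1 start that cycle, and HSP110 proteins (Hsph1, Hspa4l) end it by releasing ADP. HSP90 (Hsp90aa1) acts later on kinases and steroid receptors, small heat shock proteins (Hspb1) hold unfolded proteins without ATP, and HSP60 with its lid HSP10 (Hspd1, Hspe1) folds proteins inside mitochondria. Many of these genes are switched on by heat shock factor 1, which binds repeats of the bases GAA and their inverse TTC.

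The probes of HSP70 genes and of Hspe1 that the results turn on are shown first, since probes of a gene gave unequal differences. Positions are those of the files, on the mm9 build. Each probe is 60 bases long. The 2 exon junction probes are recognised by their positions, which span 296 bases at Hspa8 and 327 bases at Hspe1 for 60 bases of sequence. The files do not annotate the others as coding or untranslated. The names 5′ and 3′ give the order of a gene's probes, and a 5′ probe need not lie at the 5′ end of the gene. Capitals in the Hspa8 junction probe and the Hspa1a probe mark the 15 bases that are identical in the 23-base stretch where these HSP70 sequences can be laid over each other without a gap, an overlap of at least 20 bases having been asked for.
Hspa8 5′ probe, chromosome 9, 40611142 to 40611201, plus strand: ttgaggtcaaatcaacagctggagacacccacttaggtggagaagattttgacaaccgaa
Hspa8 exon junction probe, chromosome 9, 40612755 to 40613050, plus strand: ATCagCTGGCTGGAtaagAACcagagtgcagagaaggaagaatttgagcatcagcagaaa
Hspa1a probe, chromosome 17, 35107117 to 35107176, minus strand: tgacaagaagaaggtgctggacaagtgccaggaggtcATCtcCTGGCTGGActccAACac
Hspe1 exon junction probe, chromosome 1, 55147620 to 55147946, plus strand: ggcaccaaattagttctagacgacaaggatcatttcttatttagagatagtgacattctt

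The Hspa8 3′ probe lies on chromosome 9 at 40613223 to 40613282, plus strand. Its 60 bases held no open frame in any of the 3 forward frames. Its last 30 bases are shown because they hold the polyadenylation signal AATAAA, in capitals, near the end of the transcript.
Hspa8 3′ probe, last 30 bases: tggaatAATAAAactatttaaattggcacc

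The promoters were searched, on both strands, for the pairs of inverted GAA blocks that heat shock factors read. RefSeq promoter windows on GRCm38.p6, with 250 bases before and 50 after a transcript start, were given for 8 of the 10 genes. The motif GAANNTTC occurred in windows of 6 of these 8 genes (Hspa1a, Hspa1b, Hspb1, Hspd1, Hspe1 and Hsph1), against 7.86% of 32851 promoters. TTCNNGAA occurred in 3 of the 8 genes, against 8.52% of promoters. The longer motif GAANNTTCNNGAA, which overlaps both, occurred in Hspd1, Hspe1 and Hsph1, against 0.603% of promoters. The box CCAAT occurred in 5 of the 8 genes, against 37.4%. These shares are per promoter window, and the 8 genes had 11 windows. By window the motifs occurred, in the order given, in 7, 4, 4 and 6 of the 11. The genes are not independent, since Hspd1 and Hspe1 share a run of motif bases and Hspa1a and Hspa1b are nearly identical. A match describes letters in the window and was not tested for binding.

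Windows of 30 bases around the matches are printed with the motif bases in capitals. Hspd1 and Hspe1 lie head to head and share 1 run of 18 motif bases, read from opposite strands. The Hsph1 distances are from 1 of its transcript starts. From another start the same runs lie 16 bases after and 54 bases before.
Hspd1, chr1:55088053-55088082, minus strand, motif start 144 bases before the transcript start: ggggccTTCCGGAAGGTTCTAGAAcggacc
Hspe1, chr1:55088053-55088082, plus strand, 89 bases before: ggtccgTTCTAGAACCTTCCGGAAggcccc
Hsph1, chr5:149636287-149636316, minus strand, 37 bases after the start: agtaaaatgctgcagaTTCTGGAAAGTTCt
Hsph1, chr5:149636351-149636380, minus strand, 33 bases before: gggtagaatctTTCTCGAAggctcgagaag
Hspb1, chr5:135887791-135887820, plus strand, 117 bases before: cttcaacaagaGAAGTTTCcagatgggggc
Hspb1, chr5:135887811-135887840, plus strand, 97 bases before: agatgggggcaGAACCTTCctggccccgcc

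Hspa1a and Hspa1b are neighbouring, nearly identical genes, and their promoter windows differed at 4 of 300 bases (98.7% identical). Both carried the same 8 motif bases 104 bases before the start. The 200 bases upstream of Hspa1a are printed because they hold this motif together with the CCAAT box, which is read here on the opposite strand as attgg.
Hspa1a, chr17:34972157-34972356, minus strand: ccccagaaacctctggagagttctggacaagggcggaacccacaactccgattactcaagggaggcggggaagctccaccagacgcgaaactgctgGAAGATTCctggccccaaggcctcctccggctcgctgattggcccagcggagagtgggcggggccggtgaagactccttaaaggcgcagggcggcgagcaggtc

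Among the 14 probes, 1 passed the test, the Hspa8 3′ probe, and it was lower with VND3207. The test was limma's, with Benjamini-Hochberg adjustment over all 36098 probes tested and a threshold of 0.05. None of the 14 was called higher, and at an unadjusted limma p under 0.05 the counts were 5 lower and 0 higher, against 22.2% and 4.93% of all probes. Over all probes tested, 14.6% were called lower and 0.925% higher, so 1 of 14 is not above the background. That background includes probes dim in 1 group. Vehicle arrays had 66.7 to 70.0% of spots well above background and VND3207 arrays 58.8 to 61.4%. When only the 30189 probes well above background on all arrays were tested, as the 14 are, 2923 were called lower and 283 higher. Values are the log2 processed signal minus the array's 75th percentile, so that 1 unit is a 2-fold step and 0 is the 75th percentile, and they are not set between different probes. The 14 differences ran from -0.998 to 0.11 with a median of -0.26, against a median of -0.06 over all probes tested. Of the 14, 12 were below 0, or 6 when arrays were scaled on their median, a scaling that moved the median of all probes by 0.30. Of all 36098 probes tested, 20957 were below 0 with the 75th percentile subtracted. In 5 of the 14 probes all VND3207 arrays were below all vehicle arrays, and in none were they above. Over all probes tested those shares were 24.9% and 9.41%, or 34.3% in either direction.

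**Figure D1:**
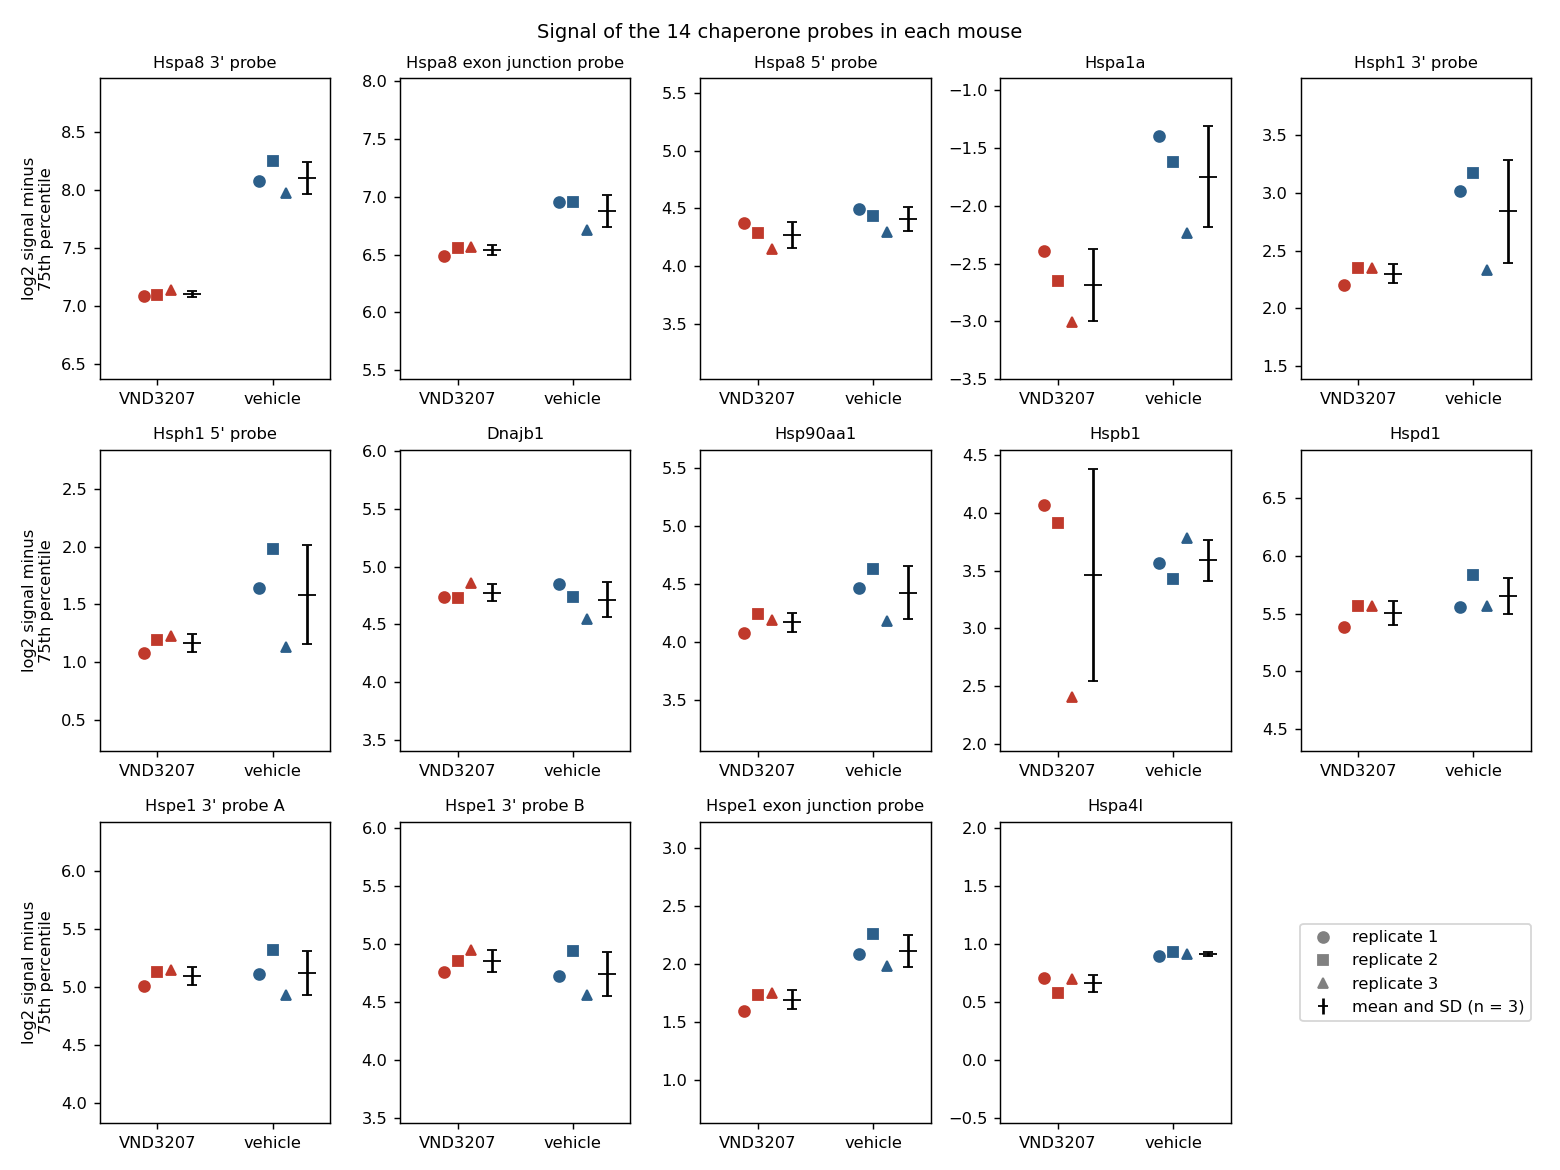
Log2 signal minus the array's 75th percentile (y axis, the same span in every panel) for the 14 chaperone probes, with VND3207 mice in red left of vehicle mice in blue, and the mean and SD of 3 mice in black. The groups are apart for the 3′ and exon junction probes of Hspa8, Hspa1a, the Hspe1 exon junction probe and Hspa4l, and VND3207 replicate 3 lies alone for Hspb1.

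Hspa8 encodes HSC70, the HSP70 protein made in unstressed cells, which also strips clathrin from vesicles. Its 3′ probe read 7.08, 7.09 and 7.13 in VND3207 mice, against 8.08, 8.25 and 7.98 in vehicle mice. The groups were far apart and the VND3207 mice lay within a narrow band. The means were 7.10 ± 0.028 in VND3207 mice and 8.10 ± 0.137 in vehicle mice (SD, n = 3 each), so the signal fell by 0.998 on the log2 scale, to 50.1% of the vehicle level (SE 0.108, 95% interval -1.26 to -0.735, limma adjusted p = 0.0033). It passed under each of the 19 settings tried, with differences of -1.06 to -0.70. Of the 402 probes within 0.5 log2 units of its level, 21.4% were called lower, their median difference was -0.23, and 13 (3.23%) were as low or lower. In bulk tissue, fewer cells of a type and less RNA per cell cannot be told apart.

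The exon junction probe of Hspa8 read 6.49, 6.55 and 6.57 in VND3207 mice, against 6.96, 6.95 and 6.71 in vehicle mice. These groups did not overlap either, but the difference was -0.34 (SE 0.110) and did not pass (limma adjusted p = 0.103). The 5′ probe read 4.37, 4.29 and 4.15 in VND3207 mice, against 4.50, 4.43 and 4.29 in vehicle mice. Here the groups overlapped, with a difference of -0.14 (SE 0.112, limma adjusted p = 0.504). The 3 probes of Hspa8 therefore gave 50.1%, 79.1% and 90.8% of the vehicle signal, in order from the most 3′ probe to the most 5′ probe. This is also their order of level, from the brightest to the dimmest. Of probes within 0.5 log2 units of the junction probe, 12.1% were called lower, with a median difference of -0.13. Near the 5′ probe these values were 3.4% and 0.004. The parts of position and of level in this order were not tested. The difference of the junction probe was -0.17 with quantile normalization and in the deposited value table and -0.040 with array median scaling. With trends in spot position, brightness and GC content removed it was -0.13, against -0.071 for the 5′ probe.

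The inequality between the Hspa8 probes was tested within each array, as the log2 signal of another probe minus that of the 3′ probe. For the junction probe this was -0.59, -0.54 and -0.56 in VND3207 mice, against -1.12, -1.29 and -1.26 in vehicle mice. The groups were apart, with a difference of 0.66 (SE 0.0912, limma adjusted p = 0.0139). For the 5′ probe it was -2.71, -2.80 and -2.99 in VND3207 mice, against -3.58, -3.81 and -3.68 in vehicle mice. The groups were again apart, with a difference of 0.86 (SE 0.119, limma adjusted p = 0.0140). Over all 10068 such pairs of probes of a gene name, 12.6% passed. Both Hspa8 calls were lost without VND3207 replicate 2 (limma adjusted p = 0.0543 and 0.0536) and without vehicle replicate 2 (0.0588 and 0.0586), with differences from 0.63 to 0.84. Processed copies of Hspa8 are known in the mouse genome, and which transcript ends or copies each probe reads was not tested.

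**Figure D2:**
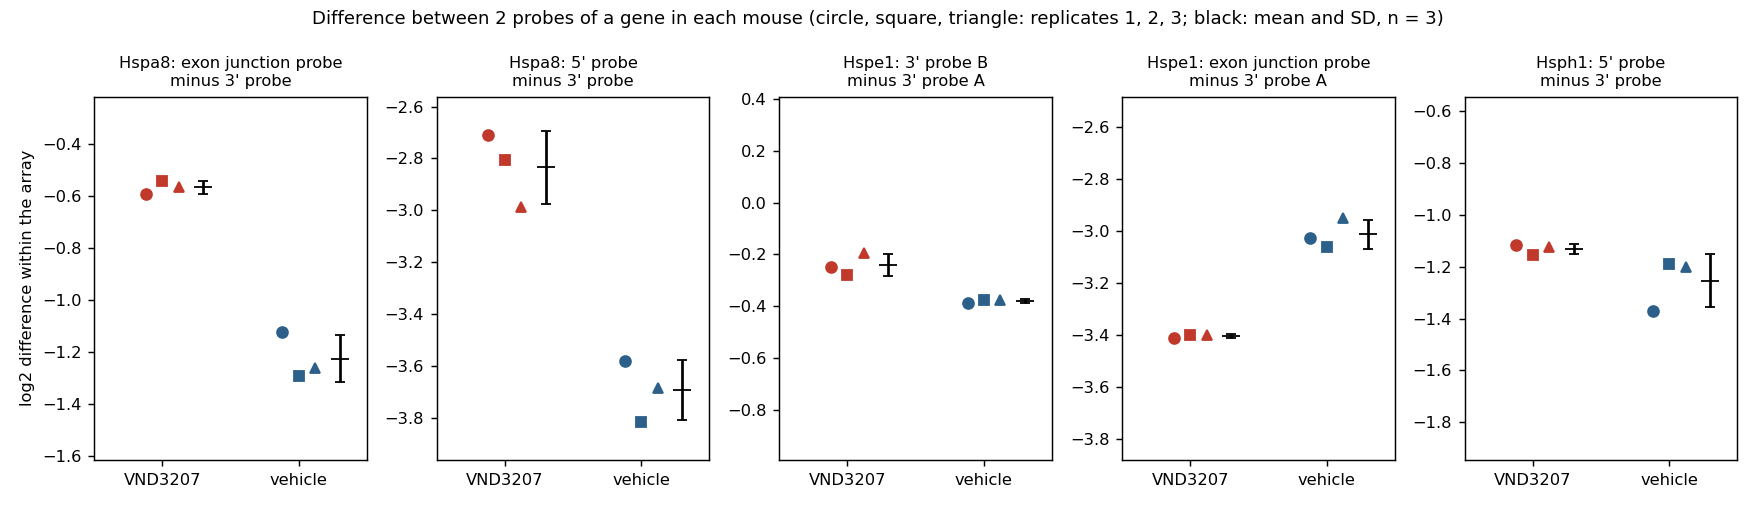
Difference in log2 signal within an array between another probe of a gene and its brightest probe (y axis), in VND3207 mice (red, left) and vehicle mice (blue, right), with the mean and SD of 3 mice in black. The 2 Hspa8 panels are higher in VND3207 mice, the panel of the Hspe1 exon junction probe is lower, and the panels of the Hspe1 3′ probe B and of Hsph1 did not pass.

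Hspa1a encodes the HSP70 protein that stress induces. Its probe, shown above, read -2.39, -2.65 and -3.01 in VND3207 mice, against -1.39, -1.62 and -2.24 in vehicle mice. The groups did not overlap, although the highest VND3207 mouse lay close to the lowest vehicle mouse. The means were -2.68 ± 0.311 and -1.75 ± 0.437 in VND3207 and vehicle mice (SD, n = 3 each). The difference of -0.93 (SE 0.264, 95% interval -1.58 to -0.29), 52.4% of the vehicle signal, did not pass (limma adjusted p = 0.0681). Without vehicle replicate 3 it was -1.18 and passed (limma adjusted p = 0.0406), whereas it was -0.48 with trends in spot position, brightness and GC content removed (limma adjusted p = 0.266), and -0.63 and -0.64 with array median scaling and with normexp background correction. Whether the probe also reads the nearly identical Hspa1b was not tested.

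Hsph1 encodes HSP105, an HSP110 protein that frees HSP70 of its ADP. Its 3′ probe, on chromosome 5 at 150419744 to 150419803, minus strand, read 2.20, 2.35 and 2.35 in VND3207 mice, against 3.01, 3.17 and 2.33 in vehicle mice. Vehicle replicate 3 lay among the VND3207 mice and the other vehicle mice lay above them. The difference was -0.54 (SE 0.228, limma adjusted p = 0.195), and -0.79 without vehicle replicate 3, where it passed (limma adjusted p = 0.0260). Without vehicle replicate 2 it was -0.37 (limma adjusted p = 0.474), and with array median scaling -0.24. The 5′ probe, at 150420110 to 150420169, read 1.08, 1.19 and 1.23 in VND3207 mice, against 1.64, 1.98 and 1.13 in vehicle mice. The same vehicle mouse lay low, and the difference was -0.42 (SE 0.220, limma adjusted p = 0.297), or -0.22 without vehicle replicate 2. Within arrays the 2 Hsph1 probes differed unequally by 0.12, which did not pass (limma adjusted p = 0.436).

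Hspa4l encodes a further HSP110 protein. Its probe, on chromosome 3 at 40594227 to 40594286, plus strand, read 0.71, 0.57 and 0.70 in VND3207 mice, against 0.89, 0.93 and 0.91 in vehicle mice. The vehicle mice were close together and all above the VND3207 mice. The difference of -0.25 (SE 0.0936) did not pass (limma adjusted p = 0.141).

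Dnajb1, the J protein that pairs with HSP70 in the heat shock response, read 4.74, 4.73 and 4.86 in VND3207 mice, against 4.85, 4.74 and 4.55 in vehicle mice. The groups overlapped, with a difference of 0.06 (SE 0.117, 95% interval -0.22 to 0.35, limma adjusted p = 0.799). With array median scaling the difference was 0.36 (limma adjusted p = 0.0520). The probe lies on chromosome 8 at 86135660 to 86135719, plus strand. Hsp90aa1, the inducible HSP90, read 4.08, 4.24 and 4.18 in VND3207 mice, against 4.46, 4.63 and 4.18 in vehicle mice, on a probe on chromosome 12 at 111929248 to 111929307, minus strand. Vehicle replicate 3 overlapped the VND3207 mice, and the difference of -0.26 (SE 0.142) did not pass (limma adjusted p = 0.323).

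**Figure D3:**
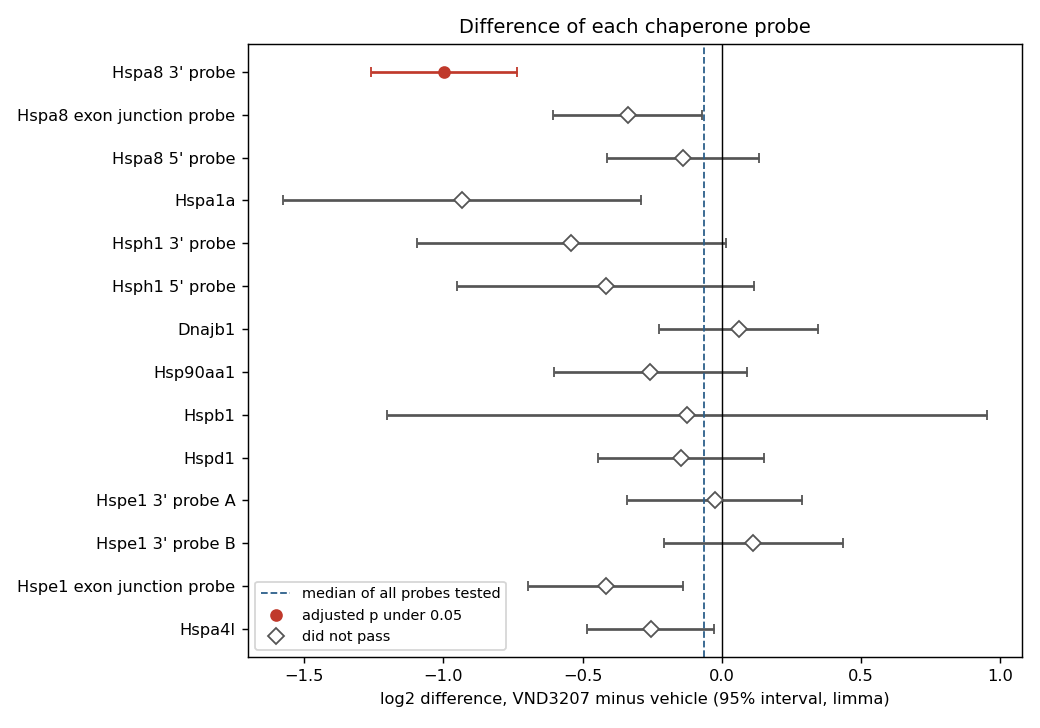
Log2 difference, VND3207 minus vehicle (x axis), of the 14 chaperone probes, with limma's 95% interval from 3 and 3 mice. The filled circle is the Hspa8 3′ probe, the 1 probe that passed, open diamonds did not pass, and the dashed line is the median of all probes tested at -0.06.

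Of the 4 probes of the mitochondrial pair, the Hspe1 exon junction probe was the 1 whose groups did not overlap. Hspd1, on chromosome 1 at 55134697 to 55134756, minus strand, read 5.39, 5.56 and 5.57 in VND3207 mice, against 5.56, 5.84 and 5.56 in vehicle mice. The groups overlapped, with a difference of -0.15 (SE 0.123, limma adjusted p = 0.522). Hspe1 has 2 probes near its 3′ end, A at 55148026 to 55148085 and B at 55148023 to 55148082 on chromosome 1, plus strand. They share 57 positions with 1 difference, T12C, counted from 1 at the 5′ end of probe A, whose base is given first. Probe A read 5.01, 5.13 and 5.15 in VND3207 mice, against 5.11, 5.32 and 4.93 in vehicle mice, a difference of -0.03 (SE 0.129, limma adjusted p = 0.929). Probe B read 4.76, 4.85 and 4.95 in VND3207 mice, against 4.72, 4.94 and 4.56 in vehicle mice, a difference of 0.11 (limma adjusted p = 0.656). Both probes overlapped between the groups.

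The Hspe1 exon junction probe read 1.60, 1.73 and 1.75 in VND3207 mice, against 2.09, 2.26 and 1.98 in vehicle mice. The groups did not overlap, and the difference of -0.42 (SE 0.114, 95% interval -0.69 to -0.14) did not pass (limma adjusted p = 0.0611). It passed under 6 other settings, among them quantile normalization (-0.44, adjusted p = 0.0490). It was -0.12 with array median scaling (limma adjusted p = 0.440), and without any 1 array it did not pass (limma adjusted p = 0.0840 to 0.199). Within arrays, the junction probe minus probe A was -3.41, -3.40 and -3.40 in VND3207 mice, against -3.03, -3.06 and -2.95 in vehicle mice. This difference of -0.39 (SE 0.0839) passed (limma adjusted p = 0.0390). It did not pass without any 1 of the 6 arrays, where adjusted p was 0.0643 to 0.118. The unequal probes of Hspe1 thus ran the other way to those of Hspa8, with the 3′ probes differing less. Copies of Hspe1 are known in the mouse genome as well, and what the probes share with them was not tested.

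Hspb1, the small heat shock protein HSP25 of mice, is known to be abundant in muscle. Its probe, on chromosome 5 at 136365366 to 136365425, plus strand, read 4.07, 3.91 and 2.41 in VND3207 mice, against 3.56, 3.43 and 3.78 in vehicle mice. VND3207 replicate 3 lay below all others, while the other VND3207 mice lay above all vehicle mice. The difference was -0.13 (SE 0.444, limma adjusted p = 0.894), and 0.40 without that mouse (SE 0.151, adjusted p = 0.163). Smooth muscle markers moved in the same mouse. Their mean over 11 probes of 8 genes was 2.53, 2.54 and 0.82 in VND3207 mice, against 2.58, 2.56 and 2.75 in vehicle mice. Summed on the linear scale, the 11 probes reached 65.8 to 280 times the 75th percentile in VND3207 mice and 231 to 292 times in vehicle mice. The median difference of the 11 probes was -0.60, with 1 called lower and 11 below 0, and without VND3207 replicate 3 it was -0.04, with 6 below 0.

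Muscle-rich small heat shock protein genes, named here after their values were seen, showed the same mouse apart. In VND3207 replicate 3, minus the mean of the other VND3207 mice, the log2 signal of Hspb8 differed by -2.30, that of Hspb6 by -1.99, that of Hspb7 by -1.96, that of Hspb2 by -1.62 and that of Hspb1 by -1.58. The 2 probes of Cryab, which encodes a crystallin found in lens and muscle, differed by -1.43 and -1.51. Hspb9 and Cryaa, a testis gene and a lens gene, differed by 0.20 and 0.04. The part that the amount of muscle in the piece of tissue has in the Hspb1 values was not tested.

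**Figure D4:**
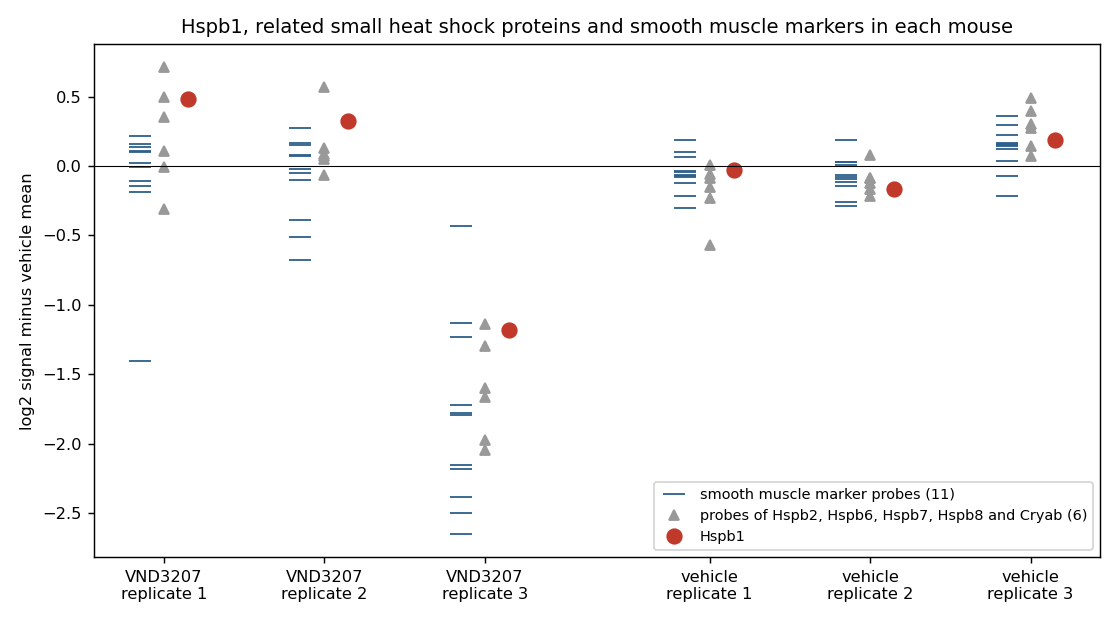
Log2 signal minus the vehicle mean of the same probe (y axis) in each mouse, VND3207 mice left and vehicle mice right, for Hspb1 (circles), 6 probes of other small heat shock proteins (triangles) and 11 smooth muscle marker probes (dashes). Each of these probes is lowest in VND3207 replicate 3.

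Marker lists of intestinal epithelium and other cells were read on the same arrays, against the 14.6% of all probes called lower and 0.925% higher, or 21.4% lower among probes near the level of the Hspa8 3′ probe. Of the 10 enterocyte marker probes, 5 were called lower and 0 higher, with a median difference of -0.38 and a summed signal of 2116 to 2347 in VND3207 mice and 2879 to 3365 in vehicle mice, in multiples of the 75th percentile. Of the 9 Paneth cell marker probes, 4 were called lower, with a median of -0.40 and a sum of 1787 to 1840 in VND3207 mice and 2567 to 2626 in vehicle mice. The sums did not overlap between the groups for either list, but in each list 2 genes, named after their values were seen, differed by more than 0, Apoa1 (0.029) and Slc5a1 (0.026) among enterocyte markers and Mmp7 (0.081) and Ang4 (0.19) among Paneth cell markers. Such sums were not particular to the epithelial lists. They also lay apart for T cell markers (34.9 to 40.9 in VND3207 mice, 58.1 to 79.5 in vehicle mice). The same held for macrophage and neutrophil markers (34.1 to 40.2 against 40.3 to 56.8) and endothelial markers (13.6 to 15.4 against 16.0 to 16.2). The sums overlapped for B and plasma cell, adipocyte and pancreatic acinar markers. T cell markers had 3 of 9 probes lower, with a median of 0.11. Macrophage and neutrophil markers had 1 of 12 lower, B and plasma cell markers 0 of 5, endothelial markers 2 of 7 lower and 1 higher, adipocyte markers 0 of 7 and pancreatic acinar markers 1 of 4 lower. The acinar probe called, of Cpa1, was well above background in 3 vehicle mice and 0 VND3207 mice. It was tested only through the group where it is high, so its call carries no weight here. The part of these lists in the chaperone values was not tested.

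The order of the mice within each group was also read over the 14 probes. These are not independent, since 3 genes have more than 1 probe, and whether they vary together within the groups was not tested. Vehicle replicate 3 was the lowest vehicle mouse on 11 of the 14 probes, against 39.4% of all probes tested. VND3207 replicate 1 was the lowest VND3207 mouse on 9 of 14, against 39.3%. The mean of the 14 centred values was nevertheless lowest in VND3207 replicate 3 (-0.22, against -0.14 and -0.11 in replicates 1 and 2). That mean includes Hspb1, which read 2.41 in replicate 3, against 4.07 and 3.91 in replicates 1 and 2. By count, replicate 3 was the highest VND3207 mouse on 9 of the 14 probes, against 44.7% of all probes tested. The low mean is therefore not a trait of most of the probes. Dnajb1, Hspb1 and Hspe1 probe B did not follow the mean profile of the other probes (r = 0.00, -0.04 and -0.06 over 6 arrays). The Hspa8 exon junction probe had the highest r (0.94), then Hsph1's 3′ probe, Hspa1a and Hsp90aa1 (0.93, 0.91 and 0.91). The remaining probes had an r from 0.49 (Hspe1 probe A) to 0.90 (the Hspe1 exon junction probe). These correlations span both groups and share the scaling of each array. Of 28975 probes well above background on all arrays, the 5 most like the mean profile of the 14 had an r of 0.990 to 0.996 over the 6 arrays. The files name 3 of them only by a genomic region and 1 by a transcript number, so no gene name is given for these.

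The other genes of the chaperone system were described from 9 lists of 93 genes, of which 91 had a tested probe. Of their 122 probes, 2 were called lower and 0 higher (limma, with 7 lower and 4 higher at an unadjusted p under 0.05). The shares over all probes tested were 14.6% and 0.925%, or 22.2% and 4.93% at the unadjusted p. Of the 122, 65 were below 0, against 20957 of the 36098 probes tested. The median difference of the 122 was -0.01, against -0.06 over all probes tested. The 2 calls were single probes of Dnajc5 and Ubb. Dnajc5 encodes a J protein of secretory vesicles. Its called probe read 6.19, 6.23 and 6.50 in VND3207 mice, against 6.86, 7.19 and 7.30 in vehicle mice. The groups were apart and the signal fell by 0.81 (SE 0.159, limma adjusted p = 0.0197). Its 3 other probes differed by -0.05 to -0.16 and did not pass. Ubb encodes a polyubiquitin. Its called probe read 7.37, 7.44 and 7.49 in VND3207 mice, against 7.86, 7.93 and 7.72 in vehicle mice. The groups were apart and the signal fell by 0.40 (SE 0.103, limma adjusted p = 0.0498), while the other Ubb probe differed by 0.01. Under quantile normalization and in the deposited value table neither probe was called. Without any 1 array the count of list probes called lower was at most 1, and it was 0 without VND3207 replicate 2, vehicle replicate 2 or vehicle replicate 3.

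Per list, the HSP70 and HSP110 relatives had a median difference of 0.06 over 11 probes and the HSP90 relatives -0.08 over 2 probes, with no call. The J proteins had a median of -0.05 over 29 probes, with the Dnajc5 call. The co-chaperones of HSP70 and HSP90 had a median of 0.05 over 22 probes, the cytosolic chaperonin TRiC with prefoldin 0.08 over 14, the mitochondrial partners -0.01 over 10 and the chaperones of the endoplasmic reticulum -0.03 over 13, all with no call. The heat shock factors and regulators had a median of -0.10 over 13 probes, with the Ubb call. The small heat shock proteins had a median of -0.24 over 8 probes of 7 genes with no call, and their mean level in the mouse with low muscle markers, VND3207 replicate 3, was -2.02, against -0.73 and -0.66 in the other VND3207 mice and -0.98, -0.92 and -0.69 in vehicle mice.

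**Figure D5:**
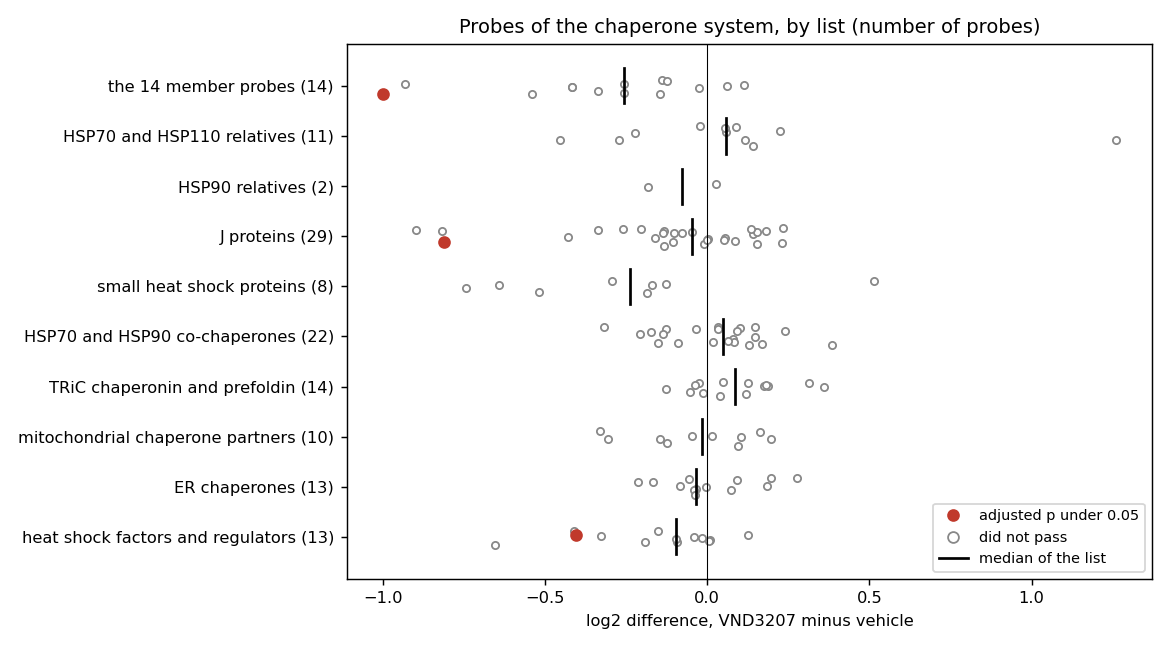
Log2 difference, VND3207 minus vehicle (x axis), of each probe of the 10 chaperones (top row) and of 9 lists of the chaperone system, with the list median as a black bar. Filled red circles passed the test (1 of the 14 chaperone probes, 1 J protein probe and 1 regulator probe), and all other probes did not.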

How the data were processed

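Scanner output came from Agilent Feature Extraction 10.7.1.1, per the submitters' processing notes. The intensity values used here are the deposited processed signals, which per the file headers are each spot's Cy3 brightness with the background subtracted and trends across the array removed, unscaled between arrays. A further deposited table gives log2 values, and how it was made is not given in the sources used here. Its 6 columns share a median of 6.05 and correlate with the scanner values at r of 0.997 to 1.000, and it was used as an alternative.

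Control spots and spots flagged as outliers were left out, spots of a probe were averaged, and each array's 75th percentile over its 59305 non-control spots was subtracted from log2 of the signal. The 36098 probes with a value in each group and a signal well above background in 3 or more mice were tested. Differences were tested with limma 3.58.1 in R 4.3.3 (lmFit, then eBayes, 2-sided, with treatment as sole factor), with Benjamini-Hochberg adjustment over all probes tested and a threshold of 0.05. The same fit was run on differences within arrays between each probe of a gene name and its brightest probe. The number of arrays limits the precision. The steps were tested on simulated data.

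The named genes were all probes of the 10 chaperones, up to 4 called genes of each list, and the 5 names most like the chaperones' mean profile. Of these 5, 1 is not reported here. The members, lists and tests were chosen with earlier results of these data known. Promoter sequences are RefSeq's, on GRCm38.p6. Alternatives covered normalization, background correction (normexp with an offset of 50), filters, variance models, array weights, a replicate block, leaving out each array, and smooth trends with GC content, brightness and spot position removed with mgcv 1.9.3. Every value column was matched to a sample, leaving 0 without one.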

Additional observations from a re-analysis of the deposited data

How the results depend on the processing

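The Hspa8 3′ probe was called lower in each of 19 settings, and no chaperone probe was called higher in any of them. Of 247 single-probe differences under alternatives, 224 kept their direction and their side of the threshold. Against 1 chaperone probe called lower, the count was 2 with quantile normalization, with the 75th percentile over probes well above background on all arrays, with normexp, with array weights and after correcting each array for trends with GC content, brightness and spot position, and 3 with eBayes trend and robust. The added calls were the Hspe1 exon junction probe (adjusted p = 0.0287 to 0.0490) and, with trend and robust, also the Hspa8 exon junction probe (adjusted p = 0.0381). Leaving out 1 array gave 1 to 3, the 3 being reached without vehicle replicate 3, where Hspa1a and the Hsph1 3′ probe passed. Scaling on the array median turned the direction of Hsp90aa1 (0.042), Hspa4l (0.043), the Hspa8 5′ probe (0.16), Hspb1 (0.17), Hspd1 (0.15) and Hspe1 probe A (0.27). It made 63.4% of all called probes higher, against 5.97% as reported, 20.7% with quantile normalization, 22.4% in the deposited table, which moved the median of all probes by 0.11, and 30.5% after the correction. The chaperone median minus that of all probes was -0.19 as reported and -0.29 to -0.18 under the alternatives. Hspe1 probe A was also turned by quantile normalization (0.031) and in the deposited table (0.041), and Hspb1 with array weights (0.11). Leaving out 1 array gave -0.021 to 0.13 for Dnajb1, -0.43 to 0.40 for Hspb1 and -0.12 to 0.073 for Hspe1 probe A. The causes were not tested.

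Probes of the 9 lists called lower numbered 2 as reported, 0 with quantile normalization, array median scaling, the deposited table and the correction, and 1 with the filter on all arrays, with no filter and with the brightest probe of a gene. They numbered 3 with the 75th percentile over probes well above background on all arrays and with trend and robust. Leaving out 1 array gave 0 to 1. Those called higher numbered 0 as reported, 1 with quantile normalization, the deposited table, trend and robust, array weights and the correction, and 35 with array median scaling. Leaving out 1 array gave 0 to 1. The 3 pairs of probes called became 0 to 2 when 1 array was left out. The Hspe1 pair was also lost with no filter (adjusted p = 0.0748) and with trend and robust (adjusted p = 0.0536).

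With the replicate block, 2 chaperone probes were called lower (Hspa1a also passed, adjusted p = 0.0294, and the Hspe1 exon junction probe had an adjusted p of 0.124), 1 list probe lower and 1 higher, and 0 pairs. Deviations of same-numbered mice correlated at 0.126, -0.110 and -0.0509, against -0.256 to 0.304 for mice with different numbers. Such values from 3 mice a group cannot settle whether the numbers pair the mice. With 3 mice a group and slide and treatment inseparable, intervals cover the spread between these mice only.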
